A study of Homo sapiens with 12 samples.

Results

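The 7 genes described here encode 3 apolipoproteins (APOE, APOC1 and APOC2), 2 receptors of the TREM family (TREM1 and TREM2), the adapter protein of those receptors (TYROBP, also called DAP12) and the membrane glycoprotein GPNMB. They were chosen by symbol, and all 7 were found once each among the 58051 genes of the count table. The 12 samples were RNA-seq libraries of THP-1 cells (an established line from a human monocytic leukaemia) turned into macrophage-like cells with phorbol 12-myristate 13-acetate (PMA) at 20 ng/ml for 24 h. The 4 groups of 3 libraries were wild-type cells (WT) with PMA alone, WT cells with PMA and interferon-gamma (IFN-γ), cells in which the syndecan-3 gene SDC3 had been edited by CRISPR/Cas9 (KO) with PMA alone, and KO cells with PMA and IFN-γ. Every group, controls included, had therefore received PMA. The labels do not state the IFN-γ dose, the time of exposure or how many edited clones the KO libraries represent, so that a difference between KO and WT cannot be told apart from a difference between the edited cells and their parent line in other respects. The labels number the libraries of a group without saying whether they came from separate cultures, and the p-values measure the spread between these libraries only, which may be technical.

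APOE, APOC1 and APOC2 are small lipid-carrying proteins. Macrophages secrete APOE to take up cholesterol that leaves the cell, APOC1 lies next to APOE in the same gene cluster, and APOC2 activates lipoprotein lipase. TREM2 binds lipids, lipoproteins and debris of dying cells, while TREM1 amplifies inflammatory signals. Neither receptor signals alone: both pair in the membrane with TYROBP, whose cytoplasmic motif recruits the kinase SYK. GPNMB is a glycoprotein of lysosomes and the cell surface whose gene is a known target of the MiT/TFE transcription factors, and together with APOE, APOC1 and TREM2 it is widely used as a marker of lipid-laden macrophages.

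The promoter windows of 5 of the genes are printed to show the regulatory letters discussed with the results: TREM2 and APOE were higher in KO cells, TYROBP was lower, GPNMB fell with IFN-γ in both genotypes, and TREM1 had few counts. Each run is the 250 bases before the RefSeq transcription start on the gene's own strand, 5′ to 3′, build GRCh38.p14, and all 7 genes had an entry. Capitals mark matches to the motifs searched on both strands, which were the interferon-gamma activated site TTCNNNGAA, the interferon-stimulated response element core GAAANNGAA, the E-box forms CATGTG and CACGTG, the PU.1 core GAGGAAGT with its shorter form AGGAAG, and the DR4 element of LXR. The longer PU.1 core contains the shorter form.
APOE promoter (first of 3 starts, chr19:44905546-44905795, plus strand): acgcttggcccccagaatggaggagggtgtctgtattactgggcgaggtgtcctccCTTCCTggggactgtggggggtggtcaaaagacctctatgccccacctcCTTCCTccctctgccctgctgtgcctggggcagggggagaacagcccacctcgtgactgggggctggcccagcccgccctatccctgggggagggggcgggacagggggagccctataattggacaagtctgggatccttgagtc
TREM2 promoter (chr6:41163117-41163366, minus strand): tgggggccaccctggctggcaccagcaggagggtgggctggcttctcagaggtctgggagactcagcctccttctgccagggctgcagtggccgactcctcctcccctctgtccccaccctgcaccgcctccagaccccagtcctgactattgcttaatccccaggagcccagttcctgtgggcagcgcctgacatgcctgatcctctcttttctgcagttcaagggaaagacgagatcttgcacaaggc
TREM1 promoter (chr6:41286683-41286932, minus strand): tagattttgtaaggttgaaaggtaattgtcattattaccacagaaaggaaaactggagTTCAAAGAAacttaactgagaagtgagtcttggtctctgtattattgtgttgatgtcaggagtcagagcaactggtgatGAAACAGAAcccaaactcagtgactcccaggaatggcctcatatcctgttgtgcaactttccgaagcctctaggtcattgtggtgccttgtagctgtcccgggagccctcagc
TYROBP promoter (chr19:35908296-35908545, minus strand): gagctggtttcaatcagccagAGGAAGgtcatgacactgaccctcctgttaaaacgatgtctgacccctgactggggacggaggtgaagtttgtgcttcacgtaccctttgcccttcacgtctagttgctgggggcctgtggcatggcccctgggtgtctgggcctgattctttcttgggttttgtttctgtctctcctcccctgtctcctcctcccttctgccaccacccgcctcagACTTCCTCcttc
GPNMB promoter (chr7:23246525-23246774, plus strand): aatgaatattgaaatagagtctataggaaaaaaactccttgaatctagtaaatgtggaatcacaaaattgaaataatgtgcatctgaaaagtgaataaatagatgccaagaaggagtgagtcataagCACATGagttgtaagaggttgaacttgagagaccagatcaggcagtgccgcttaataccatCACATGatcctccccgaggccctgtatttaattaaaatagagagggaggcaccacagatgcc

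The GPNMB window held 2 copies of the E-box CATGTG, at bases -123 to -118 and -62 to -57 counted from the start, both on the opposite strand. This motif was in 9.42% of the 35114 windows of the same length. The TYROBP window held the PU.1 core at -12 to -5 on the opposite strand, which 2.17% of the windows had, and the shorter form once more at -229 to -224. The TREM1 window held 1 match to the IFN-γ activated site at -192 to -184 (6.57% of all windows had one) and 1 to the response element core at -113 to -105 (6.88%). The APOE window held the short PU.1 form at -194 to -189 and -145 to -140, a form found in 28.7% of all windows. The TREM2 window printed here held none of the motifs, nor did the APOC2 window, and CACGTG and the DR4 element were in none of the 9 windows of the 7 genes (6.35% and 0.0740% of all windows had them). These matches describe letters and were not tested as binding sites.

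The libraries held 23616738 to 29426415 assigned counts, and levels are given as CPM, the share of a library's counts, scaled by the trimmed mean of M-values (scaled CPM). The targeted gene, SDC3, was lower in KO than in WT libraries in both conditions: its log2 fold change was -2.28 without IFN-γ (47.3 ± 3.07 against 230 ± 29.9 scaled CPM, SD, n = 3) and -1.28 with IFN-γ (239 ± 3.90 against 580 ± 9.40), so that reads from it remained in the edited cells. Of 8 macrophage markers, CD14, CSF1R, ITGAM, SPI1, FCER1G and AIF1 were between 43.8 and 1908 scaled CPM in every library. MARCO reached 40 counts at most, and CD68 had 2 to 17 counts, with 85.8% of its exon bases shared with other annotated genes, whose shared reads the counting left unassigned. The 24 markers of 8 other cell types summed to 18.6 to 38.8 scaled CPM per library, 7 of them at 0 throughout. That sum was 35.1 to 38.8 in WT with IFN-γ and 25.7 to 28.4 in KO with IFN-γ. It was 19.3 to 22.4 in WT alone and 18.6 to 21.7 in KO alone. Parts of the sum moved in opposite directions. The 3 microglia markers summed to 15.4 to 17.4 in WT and 1.78 to 2.89 in KO with IFN-γ, and to 5.53 to 8.72 and 1.97 to 2.55 without it. The 3 fibroblast markers summed to 16.1 to 16.6 and 20.2 to 22.6 with IFN-γ, and to 8.12 to 9.16 and 11.2 to 14.2 without it. The part of these sums in the results was not tested. In bulk RNA, fewer cells making a transcript and less of it per cell cannot be told apart.

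Across the 4 groups, 3 patterns stood side by side. APOE, APOC1 and TREM2 were higher in KO than in WT cells in both conditions and lower with IFN-γ in both genotypes. TYROBP did the opposite in all 4 comparisons. GPNMB, the member with the most counts, fell with IFN-γ in both genotypes and was slightly lower in KO without it. APOC2 and TREM1 were scarce. With IFN-γ, 3 of the 7 genes were called higher in KO and 1 lower (edgeR quasi-likelihood test, Benjamini-Hochberg adjusted p below 0.05 over 17119 genes), where 22.9% of all tested genes were called higher and 24.3% lower. Without IFN-γ, 4 were higher and 2 lower, against 25.4% and 24.8% of all genes. IFN-γ lowered 6 and raised 1 of the 7 in WT (27.9% and 28.6% of all genes), and lowered 5 and raised 1 in KO (31.8% and 29.2%).

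**Figure D1:**
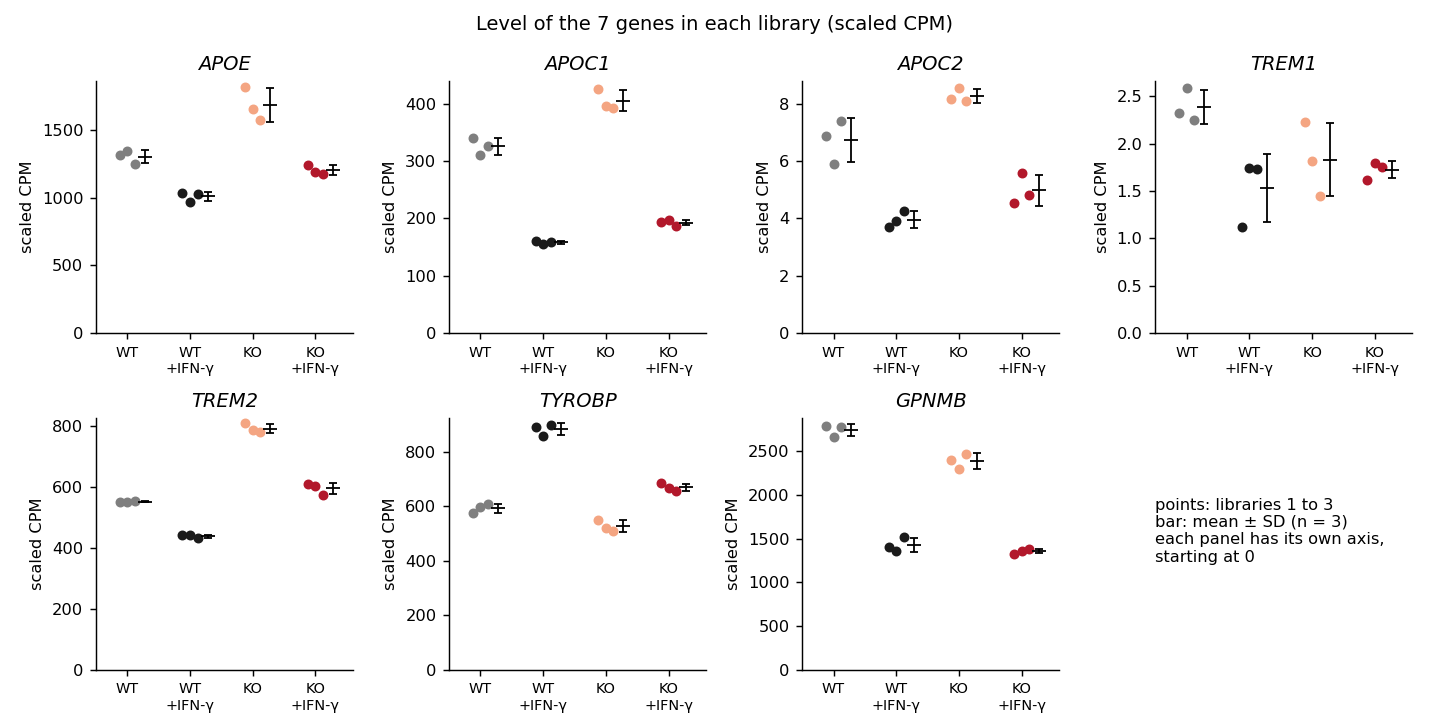
Scaled CPM of the 7 genes (y axis, starting at 0, a separate scale per gene) in each of the 12 libraries by group (x axis), with the group mean and SD beside the points. TREM2 separates the genotypes in both conditions, TYROBP is highest in the 3 WT libraries with IFN-γ, and TREM1 stays below 3 scaled CPM in all 12 libraries.

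APOE was measured at 1314, 1349 and 1251 scaled CPM in the 3 WT libraries with PMA alone and at 1822, 1657 and 1577 in the KO libraries. With IFN-γ it was at 1034, 969 and 1028 in WT and at 1244, 1189 and 1175 in KO. The KO libraries lay above the WT libraries in each condition without overlap, and the libraries without IFN-γ lay above those with it in each genotype. The log2 fold change between KO and WT was 0.37 ± 0.04 (SE) without IFN-γ (adjusted p = 6.6e-09) and 0.25 ± 0.04 with it (adjusted p = 7.4e-06), or 1.29 and 1.19 times the WT level. The response to IFN-γ was -0.37 ± 0.04 in WT (adjusted p = 4.2e-09) and -0.49 ± 0.04 in KO (adjusted p = 6.8e-12), and the difference of the responses, -0.12 ± 0.06, was not called (adjusted p = 0.201).

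APOC1, which encodes an inhibitor of lipoprotein uptake and of cholesteryl ester transfer protein, lay at 340, 311 and 326 scaled CPM in WT and 426, 397 and 393 in KO with PMA alone. With IFN-γ it lay at 161, 155 and 160 in WT and at 193, 197 and 188 in KO. No KO library overlapped a WT library of the same condition, and the gap between conditions was wider than that between genotypes. IFN-γ lowered APOC1 by more than it lowered APOE: the log2 responses were -1.04 ± 0.04 in WT (adjusted p = 3.5e-20) and -1.07 ± 0.04 in KO (adjusted p = 9.1e-21), or 0.486 and 0.475 of the level without IFN-γ. The 2 genes' responses were not tested against each other. Between genotypes APOC1 changed by 0.31 ± 0.04 without IFN-γ (adjusted p = 1.1e-07) and by 0.28 ± 0.04 with it (adjusted p = 1.7e-06), both close to APOE's values. The ratio of APOE to APOC1 counts per exon base was 2.25 ± 0.158 in WT and 2.33 ± 0.0737 in KO libraries without IFN-γ, and 3.58 ± 0.0636 and 3.51 ± 0.119 with it. The libraries of the 2 genotypes overlapped in this ratio and those of the 2 conditions did not.

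Counting bears on the APOC1 level, because 43.2% of its exon bases (532 of 1231) are also annotated as exon of ENSG00000280087, a gene model of unsettled type on the same strand that spans the stretch from the end of APOE into APOC1. Reads touching both genes were left unassigned. On the scale of scaled CPM per kilobase, APOC1 was at 265 ± 11.9 over all its exons in WT with PMA alone, and at 466 when its counts were divided by the 699 bases it does not share. APOE was at 595 and 601 on these 2 scales. The ratios of APOE to APOC1 above use all exon bases, and their size depends on that choice. ENSG00000280087 itself had 32 to 376 counts. It was higher in KO than in WT (log2 fold change 1.28 ± 0.13 without and 0.76 ± 0.19 with IFN-γ) and fell with IFN-γ (-1.74 ± 0.17 in WT and -2.25 ± 0.14 in KO). The pseudogene APOC1P1, a near copy of APOC1 some distance downstream, had 26 to 133 counts and also fell with IFN-γ (-1.67 ± 0.21 in WT and -1.32 ± 0.19 in KO), so the split of reads between the 2 copies is uncertain.

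APOC2, the cofactor of lipoprotein lipase, was much scarcer. It was at 6.86, 5.89 and 7.41 scaled CPM in WT and 8.17, 8.55 and 8.10 in KO without IFN-γ, and at 3.69, 3.91 and 4.26 against 4.54, 5.58 and 4.82 with it. The KO libraries lay above the WT libraries in each condition, but by amounts near the spread of the libraries. The fall with IFN-γ was called in both genotypes (-0.76 ± 0.13, adjusted p = 1.1e-05 in WT, and -0.73 ± 0.13, adjusted p = 8.3e-06 in KO). The KO against WT difference was 0.30 ± 0.12 without IFN-γ (adjusted p = 0.0375), a call lost without scaling (adjusted p = 0.0635), with DESeq2 (0.0659), with no low-count filter (0.0885) or without any one of 5 of the 6 libraries compared (0.0533 to 0.202). With IFN-γ the difference was 0.33 ± 0.14 (adjusted p = 0.0519) and was not called. The gene shares 53.5% of its exon bases with the readthrough model APOC4-APOC2 (0 to 17 counts), and APOC4 had 1 count in all libraries together.

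**Figure D2:**
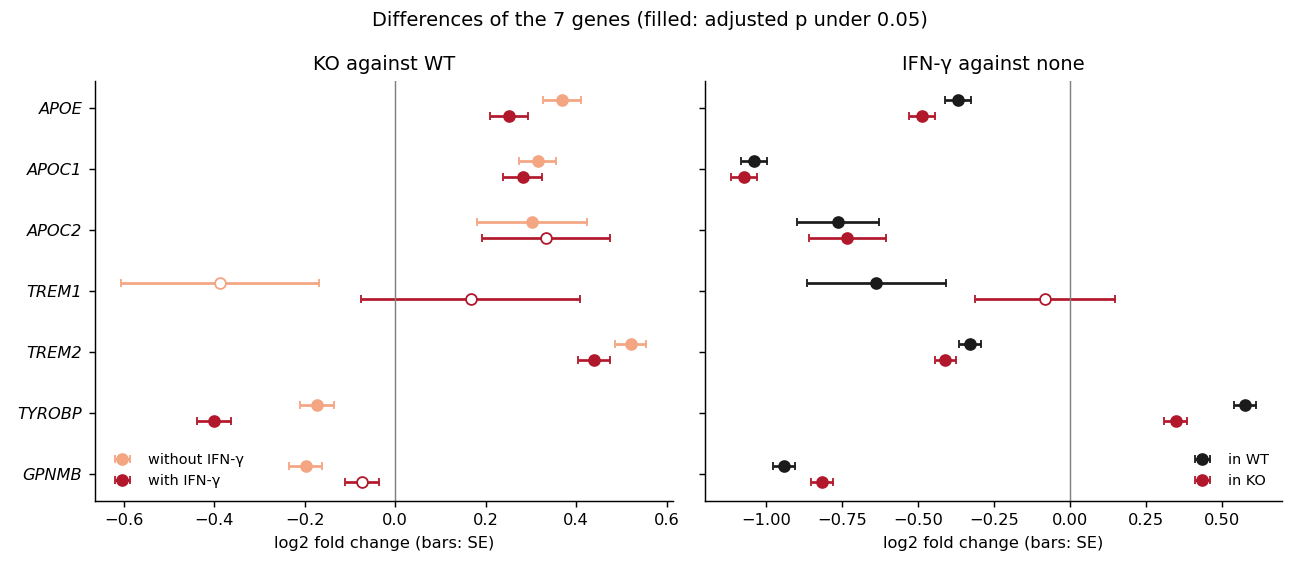
Log2 fold changes (x axis, bars SE) of the 7 genes between KO and WT (left) and between IFN-γ and no IFN-γ (right), with filled points where the adjusted p was below 0.05. TREM2 shows the largest rise in KO and TYROBP the largest fall with IFN-γ present, and the 5 members that fell with IFN-γ in KO lie left of 0, with TYROBP to the right.

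For TREM2, the lipid-sensing receptor, the WT libraries gave 550, 551 and 555 scaled CPM without IFN-γ and 442, 442 and 433 with it, and the KO libraries 809, 786 and 781 without and 609, 604 and 575 with it. Each group stood clear of the other of the same condition or genotype. TREM2 was 1.43 times the WT level in KO cells without IFN-γ (log2 fold change 0.52 ± 0.03, adjusted p = 4.7e-14) and 1.36 times with it (0.44 ± 0.04, adjusted p = 3.5e-12). Of all genes tested, 27.7% and 33.8% had a larger absolute change in these comparisons. IFN-γ lowered TREM2 by -0.33 ± 0.03 in WT (adjusted p = 9.3e-10) and by -0.41 ± 0.03 in KO (adjusted p = 4.4e-12). The difference of the responses was -0.08 ± 0.05 (adjusted p = 0.310).

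TREM1, the receptor that amplifies inflammatory signals, was close to the lower end of what was counted, with 28 to 84 counts per library. Its levels were 2.32, 2.59 and 2.25 scaled CPM in WT and 2.23, 1.82 and 1.45 in KO without IFN-γ, and 1.12, 1.75 and 1.74 in WT and 1.62, 1.79 and 1.76 in KO with it. The KO libraries lay below the WT libraries without IFN-γ, by a margin smaller than the spread among the KO libraries, and the genotypes overlapped with IFN-γ. Neither genotype difference was called (-0.39 ± 0.22, adjusted p = 0.144, without IFN-γ, and 0.17 ± 0.24, adjusted p = 0.607, with it). The fall with IFN-γ was called in WT (-0.64 ± 0.23, adjusted p = 0.0180) and not in KO (-0.08 ± 0.23, adjusted p = 0.776). The call in WT was lost without the first WT library with IFN-γ (-0.45, adjusted p = 0.125) or the second WT library without it (-0.57, adjusted p = 0.0666), and the difference of the responses, 0.55 ± 0.33, was not called (adjusted p = 0.290).

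Per kilobase of exon, TREM2 exceeded TREM1 by 841 to 2125 times in each library. TREM2 ranked 30 among the 17119 tested genes by scaled CPM per kilobase in WT with PMA alone (504 ± 2.34) and 15 in KO (723 ± 13.8), whereas TREM1 ranked 13390 and 13841.

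TYROBP, the shared adapter of both receptors, was at 576, 598 and 607 scaled CPM in WT and at 551, 521 and 509 in KO without IFN-γ. With IFN-γ it was at 892, 859 and 901 in WT and 684, 669 and 656 in KO. All KO libraries lay below all WT libraries of the same condition, and the gap was wider with IFN-γ. TYROBP was lower in KO by a log2 fold change of -0.17 ± 0.04 without IFN-γ (adjusted p = 0.00022) and -0.40 ± 0.04 with it (adjusted p = 1e-10). IFN-γ raised it by 0.57 ± 0.04 in WT (adjusted p = 6.7e-15) and by 0.35 ± 0.04 in KO (adjusted p = 1e-09), the one member that rose. Without scaling the rise in KO shrank to 0.05 (adjusted p = 0.223). The difference of the responses was -0.23 ± 0.05 (adjusted p = 0.00202), the one difference called among the 7 genes, where 7.86% of all genes were called lower and 7.61% higher.

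The receptor TREM2 and its adapter TYROBP thus moved in opposite directions in each of the 4 comparisons. Per exon base, the libraries held 1.26, 1.31 and 1.32 TYROBP counts per TREM2 count in WT without IFN-γ and 2.44, 2.35 and 2.51 in WT with it. In KO the ratios were 0.822, 0.7996 and 0.787 without IFN-γ and 1.36, 1.34 and 1.38 with it. The ratio was lower in all KO than in all WT libraries of the same condition. It does not depend on how libraries were scaled, since both counts come from the same library. The KO libraries without IFN-γ were the ones in which TREM2 exceeded TYROBP per exon base.

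**Figure D3:**
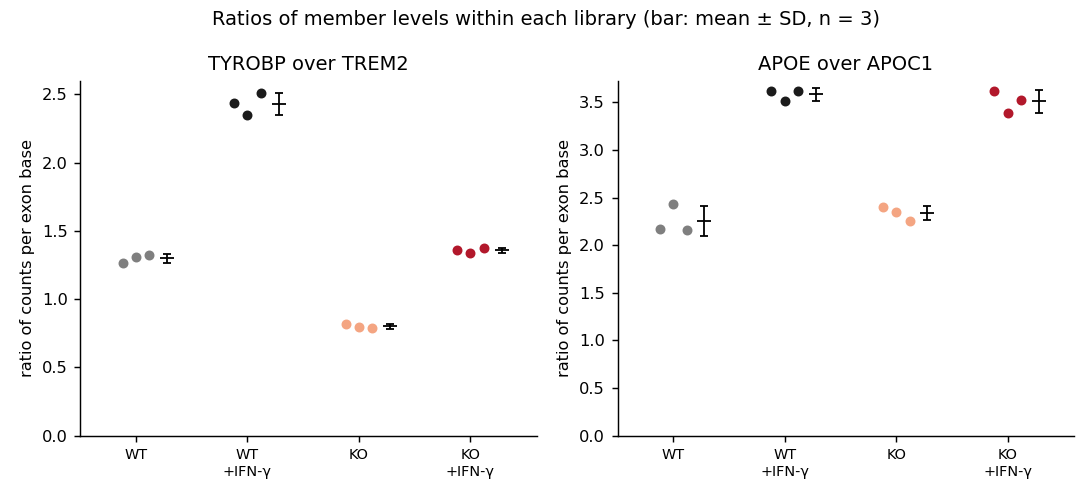
Ratio of counts per exon base (y axis, starting at 0) of TYROBP to TREM2 (left) and of APOE to APOC1 (right) in each library by group, with mean and SD (n = 3). All exon bases were used, including those APOC1 shares with another gene model. The TYROBP to TREM2 ratio runs from 0.787 in a KO library to 2.51 in a WT library with IFN-γ, while the APOE to APOC1 ratio separates the conditions and not the genotypes.

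GPNMB, a glycoprotein with a large lumenal domain, was at 2782, 2660 and 2776 scaled CPM in WT and 2395, 2298 and 2471 in KO without IFN-γ, and at 1408, 1353 and 1520 in WT and 1329, 1359 and 1380 in KO with it. The conditions were far apart in both genotypes, and the genotypes were apart without IFN-γ but overlapped with it. IFN-γ lowered GPNMB by -0.94 ± 0.04 in WT (adjusted p = 1.8e-20) and by -0.82 ± 0.04 in KO (adjusted p = 6.4e-19), or to 0.521 and 0.568 of the level without it. The KO against WT difference was -0.20 ± 0.04 without IFN-γ (adjusted p = 3.9e-05). With IFN-γ it was -0.07 ± 0.04 and not called (adjusted p = 0.109), although it was called without scaling (-0.15, adjusted p = 0.000529), with upper-quartile scaling (-0.09, 0.0411), with genes of at least 5 CPM in 3 libraries (-0.09, 0.0406) and without the second WT library with IFN-γ (-0.11, 0.0275). The difference of the responses was 0.12 ± 0.05 (adjusted p = 0.114).

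Ordered by scaled CPM per kilobase of exon in WT with PMA alone, the members ran from TYROBP (655 ± 17.9), APOE (595 ± 22.5), TREM2 (504 ± 2.34) and GPNMB (460 ± 11.5) to APOC1 (265 ± 11.9), APOC2 (5.32 ± 0.611) and TREM1 (0.551 ± 0.0415). No neighbours in this order, which counts all exon bases, overlapped in their libraries' means ± SD. By the bases it does not share, APOC1 was at 466 in this group, near GPNMB, so its place depends on the length used. In KO with PMA alone APOE (769 ± 57.0) and TREM2 (723 ± 13.8) led, within 1 SD of each other, followed by TYROBP (581 ± 24.0). APOC1 was at 580 there by the bases it does not share. With IFN-γ TYROBP led in both genotypes, at 975 ± 24.1 in WT and 738 ± 15.9 in KO. The 7 genes together held 0.614% ± 0.00429 of all counts in WT and 0.631% ± 0.0182 in KO without IFN-γ, and 0.367% ± 0.0104 and 0.356% ± 0.00307 with it.

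The other genes of the pathways were read from 5 lists. The first holds genes of the TREM locus and other myeloid receptors that work through TYROBP or a like adapter. With IFN-γ, 5 of its 9 tested genes were lower in KO and 1 higher, where 24.3% of all tested genes were lower and 22.9% higher (median log2 fold change -0.30, against -0.01 for all genes). Of those 5, TREML1 and TREML2 are listed for their place in the locus. The KO and WT libraries overlapped for TREML2 (adjusted p = 0.0459, edgeR). With the replicate number as a block, 5 rather than 6 genes of this list were called with IFN-γ. Without IFN-γ, 3 of the 9 were lower and 1 higher, against 24.8% and 25.4% of all genes (median -0.02, all genes 0.01). CLEC5A, a lectin receptor of myeloid cells, fell by -1.31 ± 0.22 with and -1.19 ± 0.31 without IFN-γ, and SIGLEC15, a receptor known from osteoclasts, by -1.28 ± 0.18 and -0.996 ± 0.15. The CLEC5A values rest on few reads, 12 to 143 counts per library. CLEC5A was at 2.08 scaled CPM in KO against 5.19 in WT with IFN-γ, and at 0.524 against 1.20 without it. CD300LB was the listed gene that was higher in KO (0.59 ± 0.15 with and 0.40 ± 0.10 without IFN-γ), and it is named here after its values were seen. TREML2, which lies between TREM1 and TREM2, rose with IFN-γ by 2.17 ± 0.14 in WT and 2.01 ± 0.15 in KO. TREML1, known from platelets, fell with IFN-γ in KO (-0.80 ± 0.10) and was lower in KO with IFN-γ (-0.45 ± 0.11), and its responses differed between genotypes by -0.58 ± 0.15 (adjusted p = 0.00489). TREML4, NCR2 and CD300E were too low to be tested.

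Of 22 tested genes of the signal path below TYROBP and of TREM shedding, 11 were lower and 4 higher in KO with IFN-γ (median -0.10), where 24.3% of all genes were lower and 22.9% higher (median -0.01). Without it 10 were lower and 8 higher (median -0.05), against 24.8% and 25.4% of all genes (median 0.01). HCST, which encodes DAP10, the adapter that works beside DAP12 and whose gene adjoins TYROBP, was at 3.41 ± 0.237 scaled CPM in KO against 8.24 ± 0.329 in WT with IFN-γ. Its log2 fold change was -1.27 ± 0.15 with and -1.19 ± 0.14 without IFN-γ, with 50.1% of its exon bases shared with another gene model. The SRC-family kinase FGR fell in KO by -1.18 ± 0.07 with and -1.91 ± 0.06 without IFN-γ. SYK, the kinase that docks on TYROBP, was slightly lower in KO with IFN-γ (-0.21 ± 0.04) and slightly higher without it (0.11 ± 0.04), the latter lost without scaling (adjusted p = 0.0690) or without the third WT library (0.0657). GRB2, an adapter of receptor signalling, was higher in KO with IFN-γ by 0.24 ± 0.03. SYK was named after its values were seen.

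Of 33 tested genes reported as markers of lipid-associated and disease-associated macrophages, 25 were lower and 6 higher in KO without IFN-γ, where 24.8% of all genes were lower and 25.4% higher (median -0.39, against 0.01 for all genes). With it 19 were lower and 8 higher, against 24.3% and 22.9% of all genes (median -0.16, all genes -0.01). PLA2G7, the lipoprotein-associated phospholipase, fell by -2.10 ± 0.05 without and -1.44 ± 0.06 with IFN-γ, and LYZ, lysozyme, by -0.53 ± 0.04 and -1.21 ± 0.04. CTSK, a cysteine protease, rose by 0.89 ± 0.11 and 0.83 ± 0.13, and HIF1A, the oxygen-regulated transcription factor, by 0.15 ± 0.04 and 0.40 ± 0.04. The HIF1A call without IFN-γ was lost without the second WT library (0.10, adjusted p = 0.0630). The difference of the IFN-γ responses was higher in KO for 16 of the 33 and lower for 3 (background 7.61% and 7.86%), with a median of 0.19 against -0.03 for all genes. This comparison shares its libraries with the genotype comparisons.

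Some members of this list were singled out after their values were seen. LPL, lipoprotein lipase, which APOC2 activates, was at 276 ± 8.12 scaled CPM in WT and 79.7 ± 2.47 in KO without IFN-γ (log2 fold change -1.79 ± 0.06), and at 36.1 ± 4.59 and 21.8 ± 1.38 with it (-0.72 ± 0.07). CSF1, the macrophage growth factor, differed most in this list: 214 ± 33.3 in WT against 21.3 ± 1.75 in KO without IFN-γ (-3.33 ± 0.09). CSF1 fell with IFN-γ in WT (-0.98 ± 0.08) and rose in KO (1.51 ± 0.09). The fatty acid carrier FABP4 fell with IFN-γ by -3.66 ± 0.11 in WT and -2.47 ± 0.11 in KO, and the tetraspanin CD9 by -1.82 ± 0.05 and -1.66 ± 0.05. PLIN2, the coat protein of lipid droplets, went with APOE: it was higher in KO (0.45 ± 0.04 without and 0.38 ± 0.04 with IFN-γ) and fell with IFN-γ (-1.68 ± 0.04 in WT and -1.74 ± 0.04 in KO). AXL, a receptor for dying cells, and CTSZ, a cathepsin, went with TYROBP in rising with IFN-γ, by 2.22 ± 0.06 and 1.90 ± 0.03 in WT and by 2.26 ± 0.06 and 2.10 ± 0.03 in KO.

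**Figure D4:**
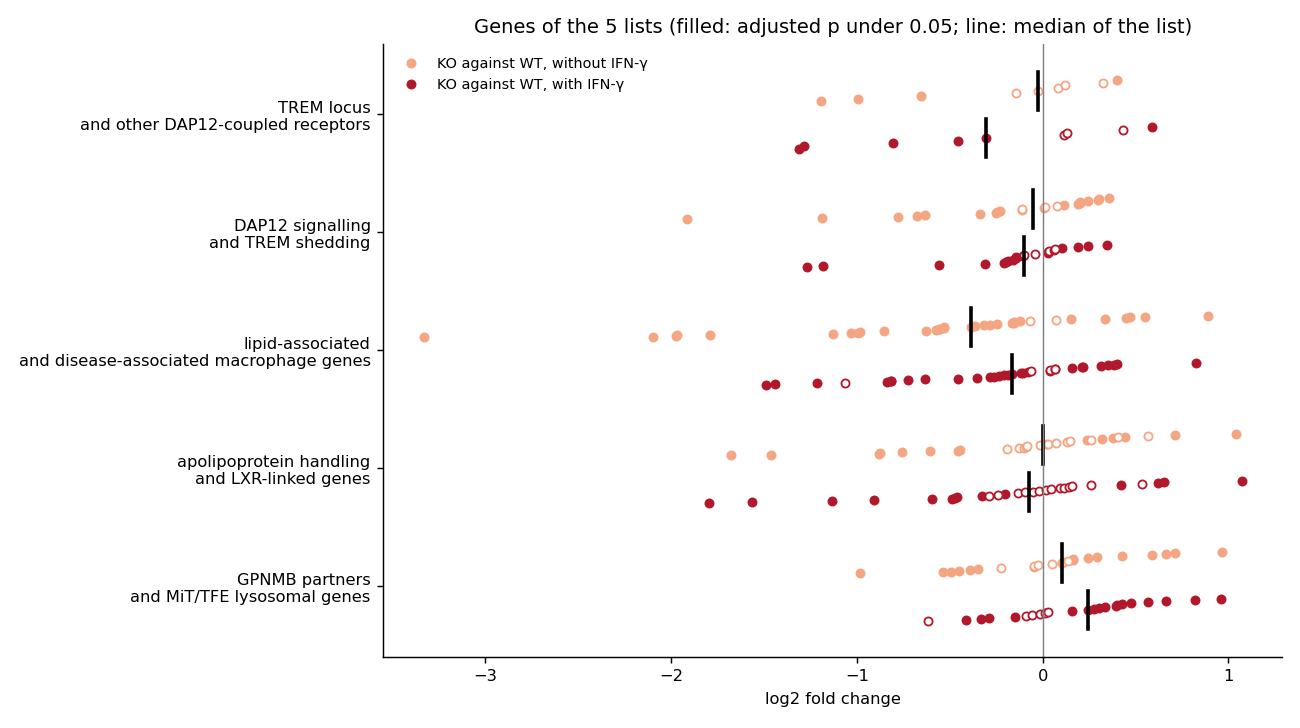
Log2 fold changes (x axis) between KO and WT of the tested genes of the 5 lists (rows), without and with IFN-γ, filled where the adjusted p was below 0.05 and with a line at each list's median. The lipid-associated and disease-associated list has its medians at -0.39 and -0.16, and the GPNMB and MiT/TFE list at 0.10 and 0.25.

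Genes that handle apolipoproteins or belong to the LXR programme, the nuclear receptor route that controls APOE in macrophages, were called in both directions. With IFN-γ 10 of 28 were lower and 4 higher in KO (median -0.07), where 24.3% of all genes were lower and 22.9% higher (median -0.01). Without it 8 were lower and 6 higher (median 7.02e-05), shares near those of all genes (24.8% and 25.4%, median 0.01). VLDLR, a receptor for APOE-bearing lipoproteins, rose by 1.07 ± 0.05 with and 1.04 ± 0.06 without IFN-γ, while LRP1, another APOE receptor, was lower by -0.91 ± 0.07 and -0.88 ± 0.07. CLU, the apolipoprotein also called APOJ, fell by -1.57 ± 0.09 and -1.68 ± 0.08, and PLTP, the phospholipid transfer protein, by -1.13 ± 0.05 and -0.87 ± 0.05. NR1H3, which encodes LXR alpha, was higher in KO with IFN-γ (0.65 ± 0.06) and not called without it (0.13 ± 0.06, adjusted p = 0.0674). It fell with IFN-γ in WT (-0.31 ± 0.06) and rose in KO (0.21 ± 0.06), where the value was -0.09 without scaling (adjusted p = 0.185). ABCA1, the exporter that loads lipid onto APOE, was higher in KO by 0.42 ± 0.05 with and 0.71 ± 0.05 without IFN-γ, and SORL1, a sorting receptor that binds APOE, fell with IFN-γ by -3.11 ± 0.07 in WT and -3.89 ± 0.07 in KO. LRP1, ABCA1 and SORL1 were named after their values were seen, and APOC4, APOA1, APOB and APOD were too low to be tested.

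Of 23 genes linked to GPNMB or to the MiT/TFE factors that act through the E-box forms above, 13 were higher and 4 lower in KO with IFN-γ (median 0.25), where 22.9% of all genes were higher and 24.3% lower (median -0.01). Without it 9 were higher and 6 lower (median 0.10), against 25.4% and 24.8% of all genes (median 0.01). NEU1, lysosomal sialidase, rose by 0.66 ± 0.07 with and 0.42 ± 0.07 without IFN-γ. MITF itself was lower in KO (-0.41 ± 0.05 with and -0.49 ± 0.04 without IFN-γ). MITF fell with IFN-γ in both genotypes (-0.59 ± 0.04 in WT and -0.51 ± 0.05 in KO). GPNMB was also lower in KO without IFN-γ and fell in both responses, but its genotype difference with IFN-γ was not called. Whether MITF or another MiT/TFE factor acts on GPNMB in these cells was not tested. The other listed MiT/TFE factors did not fall with IFN-γ. TFEC went from 89.7 to 237 scaled CPM in WT and from 98.3 to 281 in KO. TFE3 went from 70.4 to 83.7 and from 78.7 to 103. TFEB rose in WT (0.24) and was not called in KO (0.06). These 3 were named after their values were seen. FLCN, which encodes a negative regulator of TFEB and TFE3, fell in KO by -0.33 ± 0.06 with and -0.45 ± 0.06 without IFN-γ. SDC4, a syndecan that GPNMB binds, was lower in KO without IFN-γ (-0.54 ± 0.05) and higher with it (0.40 ± 0.05), and was named after its values were seen.

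Genes near the members on the chromosome were counted by direction as well. Of 29 tested genes within 500 kb of the APOE, APOC1 and APOC2 interval (chr19:44905754-44949565, plus strand for the 3 members), 16 were higher and 1 lower in KO with IFN-γ (median 0.40), where 22.9% of all genes were higher and 24.3% lower (median -0.01). Without it 17 were higher and 1 lower (median 0.37), against 25.4% and 24.8% of all genes (median 0.01). The nearest were TOMM40, a mitochondrial import channel (0.16 ± 0.06 with IFN-γ), and NECTIN2, an adhesion protein (0.47 ± 0.06), on one side, and CLPTM1 (0.50 ± 0.04) and RELB, a subunit of NF-κB (1.27 ± 0.06), on the other. TOMM40 lost its call without scaling (adjusted p = 0.272), without the first KO library (0.173) or without the third WT library (0.149). RELB, at 106 ± 2.13 scaled CPM in KO and 43.9 ± 1.72 in WT with IFN-γ, was also higher in KO without IFN-γ (0.67 ± 0.07). Around TYROBP (chr19:35904401-35908295, minus strand), 15 of 36 genes were lower and 0 higher in KO with IFN-γ (median -0.30), and 13 were lower and 2 higher without it (median -0.21), to be read against the same shares and medians of all genes.

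Around the TREM1 and TREM2 interval (chr6:41158506-41286719, minus strand for both), 5 of 11 genes were lower and 2 higher in KO with IFN-γ (median -0.15, all genes -0.01), where 24.3% of all genes were lower and 22.9% higher. Without it 2 were lower and 3 higher (median 0.12), against 24.8% and 25.4% of all genes (median 0.01). The 5 lower genes with IFN-γ include TREML2 and the 2 higher include FOXP4, both with overlapping KO and WT libraries. Around GPNMB (chr7:23235967-23275108, plus strand), 3 of 13 were higher with IFN-γ, a share near that of all genes, and 0 lower (median 0.12). Without IFN-γ 3 were higher and 1 lower (median 0.12). The RefSeq start used for the GPNMB promoter lies inside these bounds. Whether copy number or chromatin of a region differed between the lines was not measured.

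**Figure D5:**
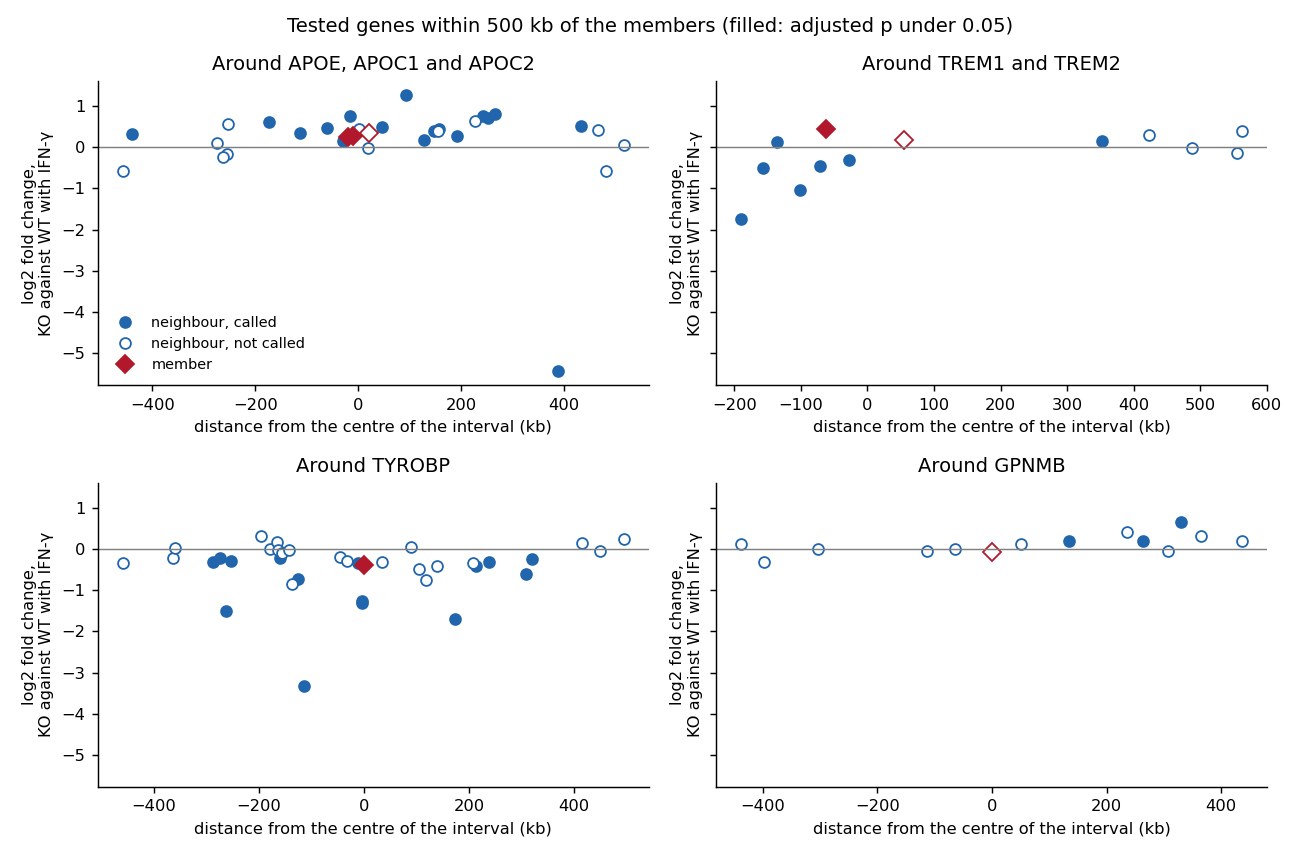
Log2 fold change between KO and WT with IFN-γ (y axis) of tested genes within 500 kb of each member interval (blue circles) and of the members (red diamonds) against distance from the interval's centre in kb (x axis), filled where the adjusted p was below 0.05. Points lie mostly above 0 around APOE, with 1 gene, CKM, at -5.43, and mostly below 0 around TYROBP.

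The genes most like each member over the 12 libraries were named by Pearson's r of log2 CPM among 11418 genes with at least 5 CPM in a group, a description in which the libraries fall into 4 groups and no test was made. Closest to APOE were MEF2D (0.984), SYNGR1 (0.983), DGKZ (0.982), P4HTM (0.982) and IPO13 (0.981). Closest to TREM2 were XRCC1 (0.994), RAB3D (0.994), FOSL2 (0.994), SMIM3 (0.993) and SH2B1 (0.993). For GPNMB they were SMC4 (0.991), LYST (0.988), PGM2 (0.988), PIK3IP1 (0.988) and SPDL1 (0.988), and for the scarce TREM1 no gene passed 0.837 (SLC5A6, followed by TCTN2, ZRANB3, KIFBP and GEMIN5). Among the members, APOE was closest to TREM2 (0.943) and APOC1 (0.920), and APOC1 to APOC2 (0.966). TYROBP ran opposite to APOC2 (-0.932), APOC1 (-0.923), APOE (-0.902), TREM2 (-0.887), GPNMB (-0.744) and TREM1 (-0.468). GPNMB was nearer to APOC1 (0.901) than to TREM2 (0.470).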

How the data were processed

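Stranded paired-end mRNA libraries were counted per gene by the authors with featureCounts 2.0.3 on hg38. Per the file headers the deposited values are raw counts over exons, with mates counted singly, strand not used and reads over several genes left unassigned, so that overlapping genes lose reads and antisense reads are included. The submitters' processing notes also list STAR 2.7.10b, BWA and fastp 0.23.2. Which aligner and annotation release lie behind the counts is not given in the sources used here, and 96.3% of gene bounds matched GENCODE 29.

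Counts of the 12 libraries were fitted in R 4.3.3 with edgeR 4.0.16 (quasi-likelihood, 1 term per group, low-count filter by group, TMM scaling), two-sided, with Benjamini-Hochberg adjustment over 17119 genes. A gene was called at an adjusted p below 0.05, and an SE is the size of the log2 fold change over the root of F. The script was tested on simulated data, for KO against WT with IFN-γ only. It found 40.0% of the 1.25-fold changes, 67.35% of the 1.5-fold and 93.75% of the 4-fold, and called 2 of 16013 unchanged genes. A small change can therefore go uncalled. Libraries of a group differed beyond sampling noise (chi-square per degree of freedom 2.79 to 6.98), so none was merged. Counts of 3 corresponded to 0.102 to 0.127 CPM.

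The 7 members and the gene lists were chosen with earlier results of these data known. The text names, per list, up to 2 genes with the largest called rises and 2 with the largest called falls in KO with IFN-γ (at least 5 CPM in the higher group, libraries not overlapping), the 2 nearest neighbours on each side of the members (some given as counts only), and the 5 genes most like each of 4 members. Other named genes are marked, and some genes the rule names are not reported here. The alternatives were RLE, upper-quartile and no scaling, DESeq2 1.42.0, limma-voom (limma 3.58.1), no filter, at least 5 CPM in 3 libraries, the compared libraries alone, the replicate number as a block, and leaving out each library.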

Additional observations from a re-analysis of the deposited data

Results flagged for a closer look

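The response to IFN-γ differed between the genotypes, by the test of the difference itself (KO minus WT), in 1 of the 7 genes. Of all tested genes, 7.86% were called lower and 7.61% higher by this test, so the members' share was near that of all genes. For TYROBP the difference was -0.23 on the log2 scale (adjusted p = 0.00202, edgeR), with responses of 0.57 in WT and 0.35 in KO. Of all genes tested, 45.4% had a larger absolute difference. Over 20 alternatives the TYROBP difference ran from -0.27 to -0.19, with an adjusted p of 0.000168 to 0.0225.

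The same test was passed by the following genes whose values are given here. For the targeted gene SDC3 the difference was 1.00. In the lists, the difference was 0.73 for FGR, 0.25 for HIF1A, 0.65 for PLA2G7, -0.68 for LYZ, 0.52 for NR1H3 and -0.26 for PLTP. Among genes singled out after their values were seen it was -0.32 for SYK, 0.20 for CTSZ, -0.29 for ABCA1, -0.78 for SORL1, 1.07 for LPL, 1.19 for FABP4, 0.93 for SPP1 (osteopontin), 2.49 for CSF1 and 0.93 for SDC4. Among genes beside the members it was 0.26 for NECTIN2, 0.60 for RELB and -0.58 for TREML1. The NECTIN2 call was lost without scaling (adjusted p = 0.0801) and without any one of 6 libraries (0.0618 to 0.0956). CSF1, SDC4 and NR1H3 fell with IFN-γ in WT and rose in KO, NR1H3 in KO with the exception given above for counts without scaling.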

How the results depend on the processing

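Of 723 recomputed values of the 7 genes, 693 kept their direction and their side of the threshold. Some of these left out a library of a group that was not compared, which could hardly move the fold change. The count is therefore a weak measure of stability, and the same limit applies to the counts of called genes below. All 520 recomputed counts of called genes for the lists and all 104 over all genes stayed within 1.5 times the main count. These counts took both directions together, so they do not show that the split by direction was kept. Without scaling the median gene's IFN-γ response moved by -0.25 in WT and -0.30 in KO, and with upper-quartile scaling by -0.11 and -0.12. The share of called genes that were higher went without scaling from 50.7% to 25.1% in WT, from 47.9% to 23.4% in KO, from 48.6% to 35.6% for KO against WT with IFN-γ and from 49.2% to 35.0% for the difference of the responses. With upper-quartile scaling it was 37.5% in WT and 36.4% in KO. For that difference, 1 member was called, but 2 with RLE scaling (GPNMB added, 0.15), with no low-count filter (GPNMB, 0.14) and without scaling (APOE, -0.16), and 1 to 2 with a library left out (2 without the third WT library with IFN-γ, GPNMB at 0.17). The cause was not tested.

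Reversals concerned values that were not called, except for NR1H3 in KO (-0.088 without scaling). With a library left out, TREM1 ran from -0.017 to 0.28 for KO against WT with IFN-γ and from -0.23 to 0.076 for the response in KO, and the difference of the responses ran from -0.065 to 0.0035 for APOC1 and from -0.046 to 0.12 for APOC2. APOC2 was -0.015 for that difference without scaling. APOC2 was called for KO against WT with IFN-γ with RLE scaling (adjusted p = 0.0421) and without the first KO library with IFN-γ (0.0385), the third WT library with it (0.0483) or the second WT library without it (0.0469). HIF1A lost its call without IFN-γ when the second WT library was left out (0.0630). TREM1 gives no value under the filter of at least 5 CPM in 3 libraries, and its few counts limit what can be seen.

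Same-numbered libraries did not deviate together: the correlation ran from -0.15 to 0.25 over 18 pairs, with 2 over 0.1. With the replicate block, 4, 6, 7, 6 and 1 members were called in the 5 comparisons, the same numbers as without it, and 7983, 8500, 9600, 10375 and 2588 of all genes.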
